A study of Mus musculus with 6 samples.

Results

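A set of 10 genes that mark subtypes of cortical interneurons was followed in RNA of the medial ganglionic eminence (MGE) at embryonic day 12.5. They were taken by symbol from the deposited gene table, and all 10 symbols matched, each to 1 of the 34745 genes listed. The groups were 3 libraries labelled Sp9-/-, here called Sp9 null, and 3 libraries of wild type littermates. Both groups were of mixed CD1, C57BL/6J and 129S6 background and were dissected as MGE tissue of the embryonic brain, per the labels. The construction of the Sp9 allele and the number of embryos behind a library are not stated in the sources used here. The p-values therefore speak of the spread among these 6 libraries, part of which may be technical.

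The MGE is the ventral forebrain region that gives rise to most somatostatin and parvalbumin interneurons of the cortex, and Sp9 encodes a zinc finger transcription factor of its progenitors and young neurons. Interneurons are sorted into subtypes by the peptides, calcium-binding proteins and synaptic proteins they make. Neuropeptides such as somatostatin are cut from longer precursors, stored in dense-core vesicles and act on G protein-coupled receptors. Most of these markers reach their mature pattern only after birth, and some are already transcribed in young neurons of the embryo.

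The members fall into 4 roles. Sst (somatostatin), Npy (neuropeptide Y), Tac1 (the precursor of substance P) and Pnoc (the precursor of nociceptin) encode neuropeptides, and Crhbp encodes a secreted protein that binds corticotropin-releasing hormone. Calb1 (calbindin) and Calb2 (calretinin) encode calcium-binding proteins of the EF-hand family. Nxph1 encodes neurexophilin 1, a secreted ligand of neurexins, and Elfn1 encodes a leucine-rich repeat protein of synapses onto somatostatin interneurons. Nos1 encodes the neuronal nitric oxide synthase.

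All 10 are protein-coding genes in GENCODE M21, and 0 of the 10 lie on chromosome 2, where Sp9 is. Calb1 lies on chromosome 4 (15881264 to 15908064), Calb2 on chromosome 8 (110142539 to 110168206), Sst on chromosome 16 (23889581 to 23890844), Crhbp on chromosome 13 (95431371 to 95444831) and Pnoc on chromosome 14 (65400673 to 65425472), all on GRCm38 as deposited. Npy (49822710 to 49829507), Nxph1 (8948431 to 9249032) and Tac1 (7554879 to 7565834) share chromosome 6, where Tac1 and Nxph1 are 1.38 Mb apart. Elfn1 (139907943 to 139974722) and Nos1 (117781032 to 117958840) share chromosome 5. Nos1 is overlapped by 2 predicted genes, Gm26995 with 4 counts over the Sp9 null and 9 over the wild type libraries and Gm37028 with 0 in both. The other 9 members overlap no other listed gene.

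The sequence before the transcription start is shown for Sst and Npy, the members with the highest levels, whose levels varied differently between the libraries. RefSeq promoter sequences (GRCm38.p6) matched 7 of the 10 members by symbol, and none was matched for Calb1, Calb2 and Pnoc. The 250 bases before the start are given 5′ to 3′ on the strand of the gene, at chr16:23890845-23891094 (minus strand) for Sst and chr6:49822460-49822709 (plus strand) for Npy. Capitals mark the cyclic AMP response element (TGACGTCA) and the GC box (GGGCGG, the motif bound by Sp family factors), searched on both strands.
Sst: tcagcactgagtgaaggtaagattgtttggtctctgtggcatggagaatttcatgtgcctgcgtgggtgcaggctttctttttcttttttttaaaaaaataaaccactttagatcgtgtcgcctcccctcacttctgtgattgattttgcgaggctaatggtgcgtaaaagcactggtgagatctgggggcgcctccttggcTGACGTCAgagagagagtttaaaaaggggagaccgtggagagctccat
Npy: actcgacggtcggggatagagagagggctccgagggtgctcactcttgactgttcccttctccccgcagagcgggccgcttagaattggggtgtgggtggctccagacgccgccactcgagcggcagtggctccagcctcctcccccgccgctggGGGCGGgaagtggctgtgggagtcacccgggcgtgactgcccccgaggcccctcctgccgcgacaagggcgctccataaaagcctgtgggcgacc

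The Sst promoter holds the cyclic AMP response element at 48 bases before the start, as 508 of 32851 promoters of this length do somewhere (1.55%). It holds no GC box. The Npy and Tac1 promoters each hold 1 GC box, starting 95 and 107 bases before the start, and that of Nxph1 holds 2, both on the minus strand; 32.7% of all promoters hold at least 1. Of the other matched members Elfn1, Nos1 and Crhbp hold neither motif, and the TATA box (TATAAA), present in 12.4% of promoters, occurs in 0 of the 7. The windows of Nos1 (117866589 to 117866838) and Nxph1 (8949769 to 8950018) lie inside the deposited gene spans. They thus come before a start within the gene, not before its first listed base. A match describes letters in a window and is not evidence of binding.

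The libraries held 6826447 to 10979280 counts in the Sp9 null and 9536050 to 10914147 in the wild type group. Sp9 itself was at 13.0, 10.6 and 12.5 CPM (counts scaled to a library total of 1000000) in Sp9 null replicates 1, 2 and 3, against 203, 247 and 189 CPM in the wild type replicates, so the labels and the Sp9 level matched in all 6. The MGE determinant Nkx2-1 was at 926 ± 27.4 CPM in Sp9 null and 848 ± 68.9 CPM in wild type libraries (SD, n = 3 each). The mitochondrial share of counts was 2.32 to 3.43% in Sp9 null and 2.20 to 2.28% in wild type libraries. Replicate 2 of both genotypes stood apart from the rest on the first principal component, which held 49.9% of the variance. Libraries were taken as pairs by replicate number, although the data set only number 2 apart and the labels state no pairs. Tests were therefore run with genotype only and again with the replicate number as a term (a replicate block), over the same 14929 genes that passed the filter on low counts. A gene was called at an edgeR adjusted p under 0.05.

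Compared per length, the members spanned a wide range of levels. Npy and Sst led, with means over the 6 libraries of 27.6 ± 5.45 and 21.4 ± 10.1 FPKM (fragments scaled to gene length and library total, SD, n = 6). Calb1, Pnoc, Elfn1 and Nxph1 followed at 3.18 ± 1.72, 2.84 ± 1.92, 2.34 ± 1.17 and 2.28 ± 0.77 FPKM. Tac1 averaged 0.88 ± 0.46 FPKM. Calb2, Nos1 and Crhbp came last at 0.31 ± 0.21, 0.16 ± 0.07 and 0.14 ± 0.09 FPKM. Between neighbours in this order only Sst and Calb1 had ranges over the 6 libraries that did not overlap, the lowest Sst value being 8.97 and the highest Calb1 value 5.16 FPKM. All other neighbours had overlapping ranges, although within each library Nxph1 exceeded Tac1, and Tac1 exceeded Calb2, in 6 of 6. Npy exceeded Sst in 4 of 6 libraries, and Nos1 exceeded Crhbp in 3 of 6.

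**Figure D1:**
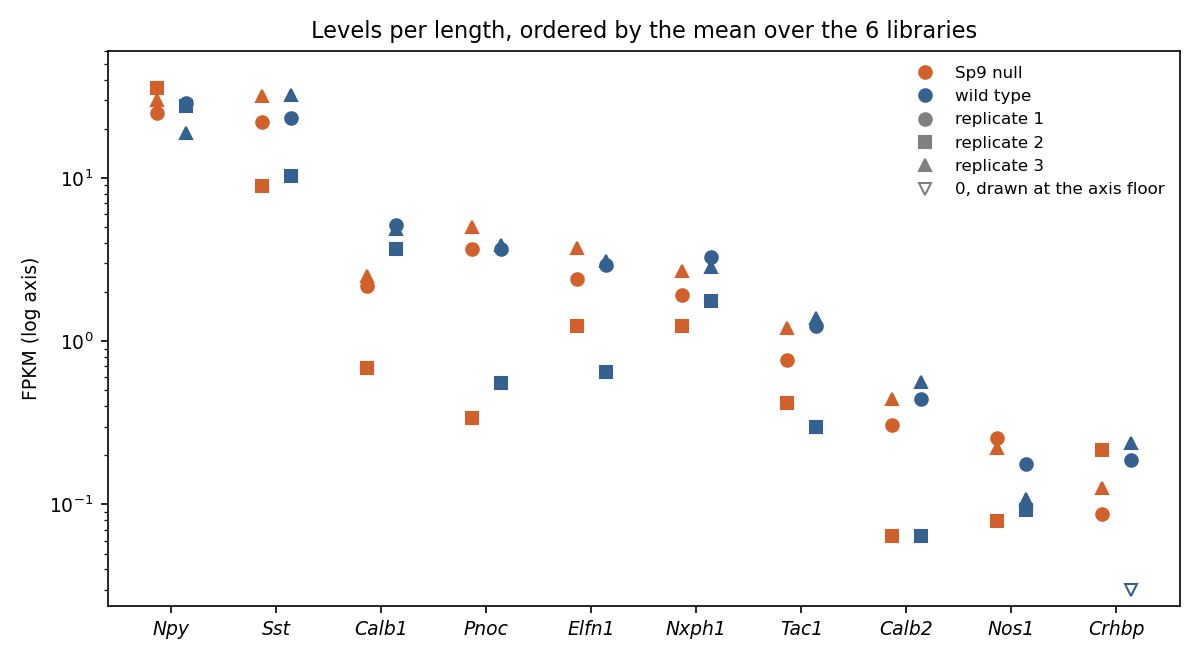
FPKM of the 10 members on a log axis, ordered by the mean over all 6 libraries; colour gives the genotype and marker shape the replicate number. Npy and Sst sit above all others, and the only value of 0, Crhbp in wild type replicate 2, is drawn as an open triangle at the axis floor.

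Of the 10 members 8 passed the filter on low counts and 2, Calb2 and Crhbp, did not. Without the block 0 of the 8 were called, beside 0.147% of all tested genes, 0.0469% higher and 0.1% lower in Sp9 null, and DESeq2 without the block also called 0. With the block 1 of the 8, Calb1, was called lower, beside 4% of all tested genes, 2.22% higher and 1.78% lower. An unadjusted p under 0.05 was found for 1 of 8 members without the block (5.91% of all tested genes) and for 3 of 8 with it (17.2% of all tested genes). The median log2 fold change of Sp9 null over wild type was 0.05 over the 8 members and -0.005 over all tested genes, with 4 members above and 4 below 0. In CPM, 1 member had all Sp9 null libraries below all wild type libraries, which held for 8.06% of tested genes, and 0 members had them all above, which held for 4.95%. Fewer cells of a type and less RNA per cell cannot be told apart in these tissue samples.

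Calb1 had the largest log2 fold change of the 8 tested members. It was at 11.7, 3.73 and 13.7 CPM in Sp9 null replicates 1, 2 and 3, against 28.0, 19.97 and 26.5 CPM in the wild type replicates. The groups did not overlap, and Sp9 null replicate 2 was the lowest library by far. The mean was 9.71 ± 5.27 CPM in Sp9 null and 24.8 ± 4.27 CPM in wild type libraries (SD, n = 3 each), a level 2.56-fold lower in the mutant. Within replicate numbers 1, 2 and 3 the Sp9 null level was 0.42, 0.19 and 0.52 times the wild type level. Without the block the log2 fold change was -1.35 (SE 0.43, 95% interval -2.40 to -0.31, edgeR adjusted p = 0.749), and with it -1.42 (SE 0.24, 95% interval -1.97 to -0.87, edgeR adjusted p = 0.0161). With all 6 libraries in edgeR, Calb1 thus passed only the blocked test. Its blocked adjusted p was 0.0515 without replicate 1 of both groups, 0.00321 without replicate 2 and 0.000107 without replicate 3. Such fits keep few libraries and lean on a spread shared across genes, so they are a weak check. In the unblocked fit without replicate 2 of both groups, an alternative chosen after seeing the data, the log2 fold change was -1.08 and the edgeR adjusted p = 0.00541.

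Its paralogue Calb2 was near the detection limit. Calb2 had 3, 1 and 6 counts in Sp9 null replicates 1, 2 and 3 and 6, 1 and 8 counts in the wild type replicates, and the groups overlapped. The summed 10 counts in Sp9 null and 15 in wild type libraries gave a depth-scaled ratio of 0.74 (95% exact interval 0.30 to 1.77, counting error only). A change of the size seen for Calb1 was within that interval, as was no change, so these counts neither show nor exclude it.

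Sst, the peptide gene that defines a main class of MGE-derived interneurons, was at 13.2, 5.37 and 19.1 CPM in Sp9 null replicates 1, 2 and 3. In the wild type replicates it was at 13.9, 6.14 and 19.4 CPM. The groups overlapped almost fully, while within each genotype replicate 2 was lowest and replicate 3 highest. On the log2 scale the difference was -0.05 without the block (SE 0.57, 95% interval -1.44 to 1.34) and -0.06 with it (SE 0.15, 95% interval -0.37 to 0.24, edgeR adjusted p = 0.883). Same-numbered libraries differed little, with an Sp9 null level 0.95, 0.88 and 0.99 times the wild type level. The blocked interval does not reach the blocked Calb1 estimate of -1.42, while the unblocked interval contains the unblocked Calb1 estimate of -1.35.

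Npy, an inhibitory peptide gene of several interneuron classes, was at 14.2, 19.9 and 17.1 CPM in Sp9 null libraries and at 16.3, 15.5 and 10.7 CPM in wild type libraries. The groups overlapped, with the highest level in Sp9 null replicate 2 and the lowest in wild type replicate 3. The unblocked log2 value was 0.30 (SE 0.21, edgeR adjusted p = 0.903) and the blocked value 0.31 (SE 0.15, 95% interval 0.01 to 0.62, edgeR adjusted p = 0.27). Without replicate 1 of both groups the blocked value was 0.54, with an adjusted p = 0.0263, the only setting tried in which Npy passed.

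Pnoc and Tac1 were lower in level than Sst and did not pass in any setting tried. Pnoc was at 7.91, 0.73 and 10.7 CPM in Sp9 null libraries and at 7.86, 1.19 and 8.37 CPM in wild type libraries. Replicate 2 was far below the others in each genotype, with 8 and 13 counts in Sp9 null and wild type. The log2 fold change of Pnoc was 0.16 without the block (SE 1.03) and 0.11 with it (SE 0.23, 95% interval -0.36 to 0.57). Tac1 was at 3.52, 1.91 and 5.51 CPM in Sp9 null libraries, against 5.66, 1.37 and 6.35 CPM in wild type libraries. The groups overlapped, and the log2 fold change was -0.27 without the block (SE 0.60) and -0.20 with it (SE 0.27, 95% interval -0.74 to 0.35). Crhbp had 1, 4 and 2 counts in Sp9 null and 3, 0 and 4 counts in wild type libraries, sums of 7 and 7, and allowed no comparison (ratio 1.11, 95% exact interval 0.33 to 3.73, counting error only).

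**Figure D2:**
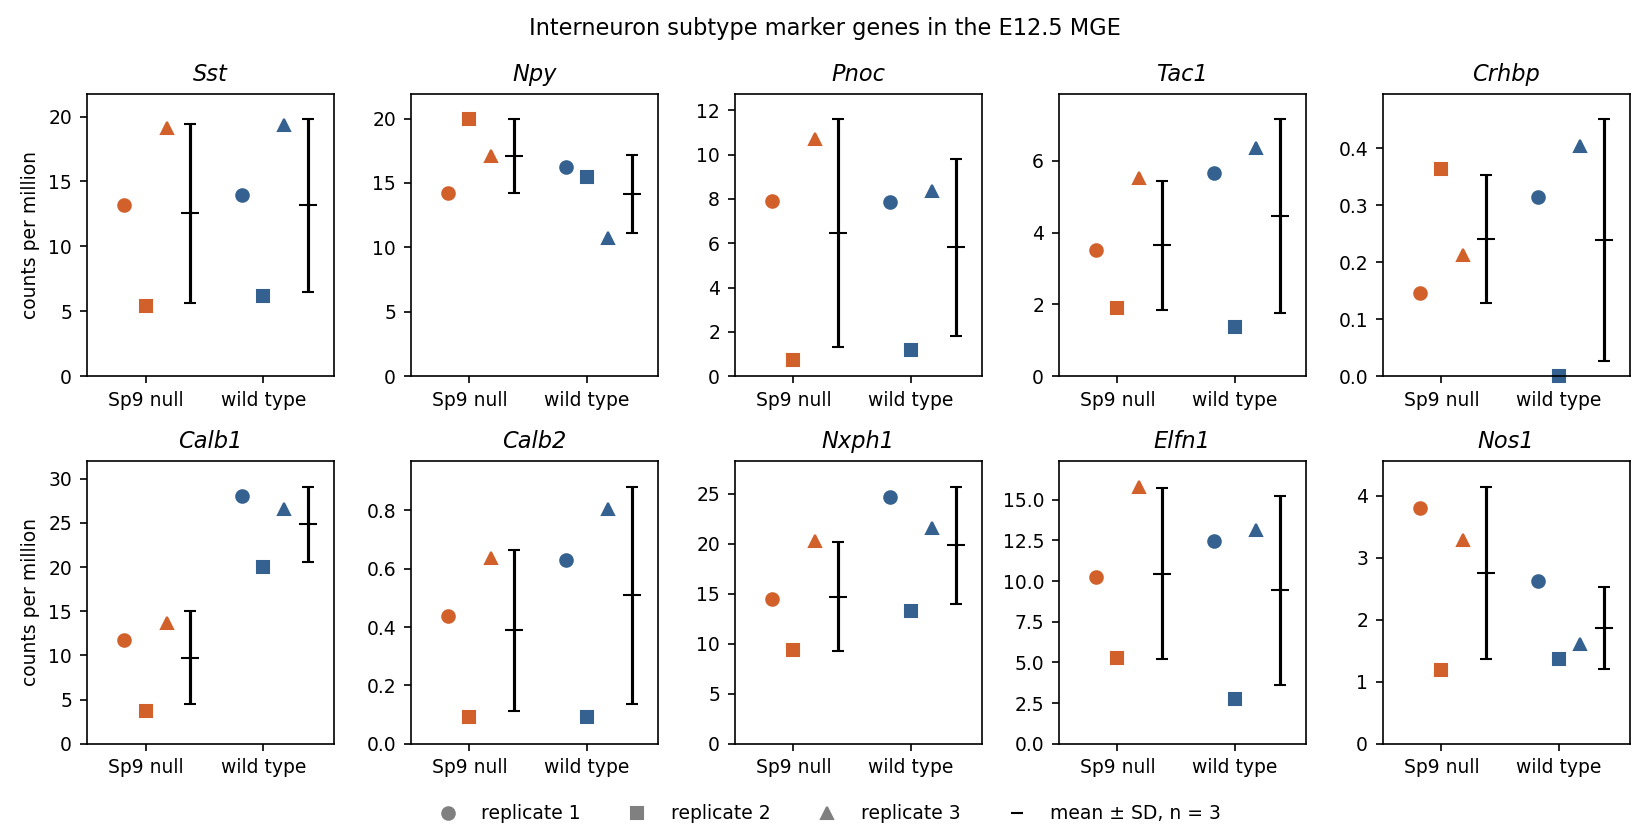
CPM of each member in the 3 Sp9 null (left) and 3 wild type (right) libraries, with marker shapes for the replicate number and the mean and SD in black; each panel has its own axis from 0. Calb1 is the only member whose Sp9 null values, 3.73 to 13.7, all lie below the wild type values, 19.97 to 28.0.

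Of the synaptic members, Nxph1 was the nearer to the threshold. It was at 14.5, 9.38 and 20.3 CPM in Sp9 null replicates 1, 2 and 3, against 24.6, 13.3 and 21.6 CPM in the wild type replicates. The groups overlapped, but the Sp9 null library was the lower in each number, at 0.59, 0.71 and 0.94 times the wild type level. On the log2 scale the difference was -0.41 both unblocked (SE 0.32, edgeR adjusted p = 0.920) and blocked (SE 0.14, 95% interval -0.70 to -0.13, edgeR adjusted p = 0.0921), so Nxph1 did not pass. Elfn1 was at 10.3, 5.28 and 15.8 CPM in Sp9 null libraries and at 12.5, 2.75 and 13.1 CPM in wild type libraries, with overlapping groups. Its log2 fold change was 0.17 without the block (SE 0.65) and 0.24 with it (SE 0.19, 95% interval -0.14 to 0.63).

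Nos1 had 26, 13 and 31 counts in Sp9 null and 25, 15 and 16 counts in wild type libraries. The mean was 2.76 ± 1.39 CPM in Sp9 null and 1.87 ± 0.66 CPM in wild type libraries (SD, n = 3 each), with overlapping groups. The estimate on the log2 scale was 0.55 without the block (SE 0.47) and 0.53 with it (SE 0.34, 95% interval -0.17 to 1.22), and did not pass in any setting tried.

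**Figure D3:**
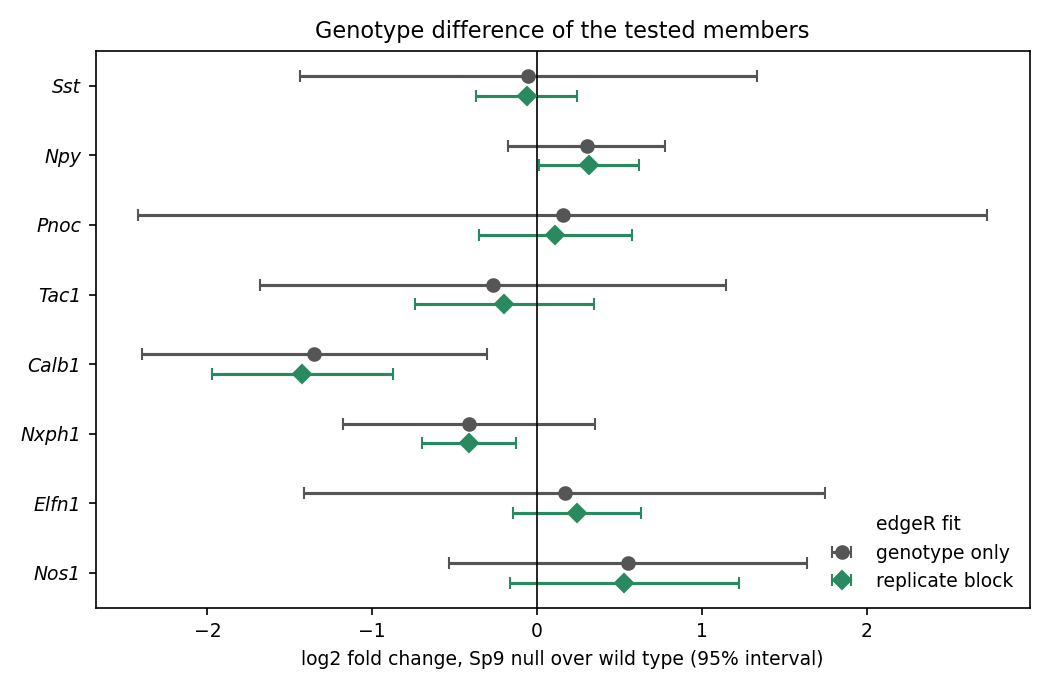
Log2 fold change of Sp9 null over wild type for the 8 tested members, with 95% intervals, from the edgeR fit with genotype only (circles) and with the replicate block (diamonds). The intervals of Calb1 lie below 0 in both fits, at -2.40 to -0.31 and -1.97 to -0.87, and those of Pnoc, Sst and Elfn1 are much narrower with the block.

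Replicate 2 was low for most of these markers in both genotypes. The ratio of replicate 2 to the mean of replicates 1 and 3 was under 0.5 in both genotypes for 4 of 8 tested members, namely Sst, Pnoc, Tac1 and Elfn1, and for 4.24% of all tested genes. For Pnoc the ratio was 0.08 in Sp9 null and 0.15 in wild type libraries, and for Sst 0.33 and 0.37. For Tac1 it was 0.42 and 0.23, and for Elfn1 0.41 and 0.21. Nxph1 was reduced less, to 0.54 in Sp9 null and 0.57 in wild type. Calb1 and Nos1 differed between the genotypes, at 0.29 and 0.33 in Sp9 null and 0.73 and 0.65 in wild type; that difference was not tested. Npy went the other way, at 1.28 in Sp9 null and 1.15 in wild type libraries. In all, 7 of 8 tested members were below 1 in both genotypes, against 39.1% of all tested genes.

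Markers of tissue beside the MGE moved with replicate 2 as well. The 8 pallial glutamatergic genes summed to 33.8, 1.73 and 57.9 CPM in Sp9 null replicates 1, 2 and 3 and to 22.8, 1.83 and 29.1 CPM in wild type replicates. Most of the sum in replicates 1 and 3 was Tbr1 and Slc17a6, for example 23.3 and 7.62 CPM in Sp9 null replicate 1. Emx1, Neurod2, Neurod6 and Neurog2 of the same list were at or below 0.63 CPM in every library. The 6 genes of Cajal-Retzius cells, early cortical neurons that make reelin and calretinin, summed to 111, 14.8 and 152 CPM in Sp9 null and 75.9, 15.3 and 127 CPM in wild type replicates. Reln, also a marker of interneuron subtypes, made up most of it, at 74.7, 8.20 and 106 CPM in Sp9 null and 56.9, 9.71 and 96.9 CPM in wild type replicates. With the block 1 of 3 tested pallial and 2 of 5 tested Cajal-Retzius genes were called, all higher in Sp9 null, beside 2.22% of all tested genes. They were Tbr1, Trp73 and Lhx1, by 0.81, 0.77 and 0.93 on the log2 scale (edgeR adjusted p = 0.0238, 0.0258 and 0.00282). None of these calls held by DESeq2 with the block or without replicate 3. The 6 hypothalamic genes summed to 15.2, 7.29 and 17.4 CPM in Sp9 null and 9.75, 6.05 and 11.2 CPM in wild type replicates. The 6 genes of MGE and preoptic identity summed to 1766 to 1983 CPM in Sp9 null and 1939 to 2040 CPM in wild type libraries, with replicate 2 at 0.90 and 0.97 times the mean of the other replicates. That sum is carried by its most abundant genes, such as Nkx2-1, and Lhx8 of the same list was at 0.37 times in Sp9 null and 0.65 times in wild type libraries. With the block 1 of the 6, Lhx6 on chromosome 2, was called lower in Sp9 null and 0 higher. Lhx6 was at 375 ± 35.6 CPM in Sp9 null and 521 ± 51.9 CPM in wild type libraries. The groups did not overlap (blocked log2 difference -0.455, SE 0.06, edgeR adjusted p = 6.01e-06). This call held by DESeq2 with the block and with each replicate number left out. The part of tissue beside the MGE in the levels of the members was not tested.

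The sums of the other lists varied less with the replicate, but single genes in them did not all follow their sum. The 10 genes of the lateral ganglionic eminence and striatum, where projection neurons make Tac1, summed to 450, 473 and 477 CPM in Sp9 null and 413, 381 and 425 CPM in wild type libraries. With the block 4 of its 8 tested genes were called higher in Sp9 null and 0 lower, beside 2.22% and 1.78% of all tested genes. These were Six3, Foxp1, Meis1 and Meis2. All 4 calls were lost by DESeq2 with the block (adjusted p 0.0652 to 0.511). They were also lost in edgeR without replicate 2 (adjusted p 0.164 to 0.531) and without replicate 3 (0.0528 to 0.274). Within this list the replicate 2 ratio of Foxp2 was 0.20 in Sp9 null and 0.27 in wild type libraries, and that of Drd2 was 0.42 and 0.20, while that of the most abundant gene, Meis2, was above 1 in both genotypes. The 5 genes of the caudal ganglionic eminence, a source of calretinin interneurons, summed to 483 to 655 CPM in Sp9 null and 513 to 657 CPM in wild type libraries, with Sp8 of this list at a replicate 2 ratio of 0.27 and 0.60. Endothelial genes, 5 in number, summed to 103 to 116 CPM in Sp9 null and 106 to 119 CPM in wild type libraries. The 7 microglial genes summed to 8.48 to 12.7 CPM in Sp9 null and 29.8 to 33.9 CPM in wild type libraries. Of the 6 tested, 5 were called lower in Sp9 null and 0 higher with the block. Without the block 0 genes of either list were called. Among the defining markers Neurod6, Nr5a1 and Drd1 had at most 3 counts in every library.

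**Figure D4:**
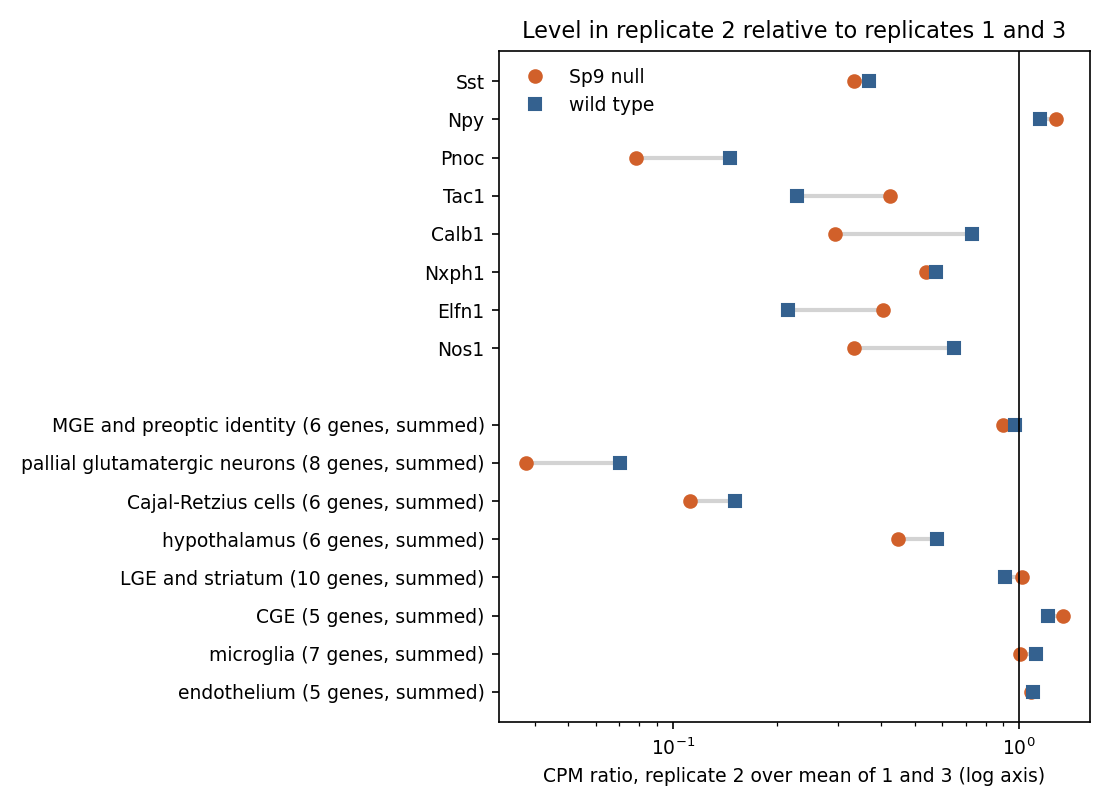
Ratio of the level in replicate 2 to the mean of replicates 1 and 3, on a log axis, for the 8 tested members (top) and for the summed CPM of marker lists (bottom), with Sp9 null as circles and wild type as squares. Sst, Pnoc, Tac1 and Elfn1 lie under 0.5 in both genotypes, as do the pallial and Cajal-Retzius lists, while Npy lies above 1.

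Outside the members, few other interneuron peptides were measurable. Of 12 further neuropeptide genes only 2, Cort and Nts, passed the filter, and 0 were called in either fit. Cort, encoding cortistatin, a relative of somatostatin, was at 2.06 ± 0.22 CPM in Sp9 null and 2.28 ± 0.07 CPM in wild type libraries (SD, n = 3 each). The groups did not overlap, though narrowly, and the blocked difference was -0.12 on the log2 scale (SE 0.33). Nts, encoding neurotensin, had 26, 0 and 15 counts in Sp9 null and 12, 0 and 4 counts in wild type libraries, and its blocked log2 difference of 1.70 (SE 0.53) gave an edgeR adjusted p = 0.0586. Vip, Crh and Cartpt had at most 3 counts in every library.

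The machinery that makes and stores peptides was well measured, with 11 of 11 genes tested, and 0 were called without the block. With the block 1 rose and 1 fell. Scg2, encoding secretogranin II of dense-core vesicles, was at 20.7, 0.73 and 21.3 CPM in Sp9 null replicates 1, 2 and 3, against 7.34, 0.64 and 10.8 CPM in wild type replicates. It rose by the blocked test, by 1.16 on the log2 scale (SE 0.19, edgeR adjusted p = 0.000124). Scg2 was nearly absent from replicate 2 of both genotypes. So were Tbr1 and Slc17a6 of the pallial list, Lhx5 of the Cajal-Retzius list and Otp of the hypothalamic list. Slc17a7 of the pallial list was not reduced there, at 4, 7 and 8 counts in Sp9 null and 3, 4 and 3 counts in wild type replicates. The part of tissue beside the MGE in the Scg2 result was not tested.

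Scg5, encoding the chaperone 7B2 of the convertase Pcsk2, fell to 53.3, 51.3 and 46.2 CPM in Sp9 null replicates 1, 2 and 3, against 81.0, 62.9 and 84.3 CPM in wild type replicates. The groups did not overlap, and the blocked log2 difference was -0.56 (SE 0.09, edgeR adjusted p = 0.0003). Scg5 lies on chromosome 2, as does Sp9. Both Scg2 and Scg5 kept their blocked calls by DESeq2 with the block and with each replicate number left out in turn, the latter a weak check on few libraries. The most abundant genes of the list did not pass: Cpe, which trims peptide ends, was at 386 ± 13.7 CPM in Sp9 null and 381 ± 17.4 CPM in wild type libraries, and Scg3 and Pam, the amidating enzyme, differed by 0.10 (SE 0.06) and -0.06 (SE 0.09) on the log2 scale with the block.

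Of 14 genes for receptors of the members' peptides and of corticotropin-releasing hormone, the ligand of Crhbp, 4 were tested, Oprl1, Tacr1, Sstr1 and Crhr1, and 0 were called in either fit. Oprl1, the nociceptin receptor, had the highest mean, at 26.2 ± 15.0 CPM in Sp9 null and 27.8 ± 13.8 CPM in wild type libraries (SD, n = 3 each), and the blocked difference was -0.11 on the log2 scale (SE 0.11). Its level in replicate 2 was 0.27 and 0.34 times the mean of the other replicates in Sp9 null and wild type, beside 0.08 and 0.15 for its ligand gene Pnoc. The substance P receptor gene Tacr1 and the somatostatin receptor gene Sstr1 differed by -0.89 (SE 0.37) and -0.33 (SE 0.40) on the log2 scale with the block. Sstr1 had 0 counts in replicate 2 of both genotypes.

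Among 12 other subtype markers 7 were tested, 0 were called without the block and 1 rose with it. Kcnc2, a fast potassium channel gene of parvalbumin cells, was at 11.5 ± 1.94 CPM in Sp9 null and 7.72 ± 3.74 CPM in wild type libraries (SD, n = 3 each; blocked edgeR adjusted p = 0.0426). The call was lost without replicate 2 (0.529), without replicate 3 (0.162) and by DESeq2 with the block (0.447). Reln, Kit and Kcnc1 differed by 0.19 (SE 0.09), -0.25 (SE 0.10) and 0.16 (SE 0.12) on the log2 scale and did not pass. Pvalb, the marker of the parvalbumin class, had 3, 2 and 0 counts in Sp9 null and 1, 1 and 3 counts in wild type libraries.

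Of 11 paralogues and partners of the members 8 were tested, 0 were called without the block and 1 rose with it. Gucy1a1 (Gucy1a3 in the deposited table), a subunit of the guanylyl cyclase that senses nitric oxide, was at 31.3, 36.1 and 30.5 CPM in Sp9 null replicates 1, 2 and 3, against 23.7, 24.6 and 19.8 CPM in wild type replicates. The groups did not overlap, and the blocked difference was 0.55 on the log2 scale (SE 0.11, edgeR adjusted p = 0.000956). The call was lost without replicate 2 (0.112), without replicate 3 (0.0607) and by DESeq2 with the block (0.0529). The partner subunit Gucy1b1, the adaptor Nos1ap and the endothelial synthase Nos3 differed by -0.05 (SE 0.13), -0.28 (SE 0.21) and -0.19 (SE 0.17) on the log2 scale and did not pass.

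Genes with the most similar profiles over the 6 libraries were listed for Sst, Calb1 and Nxph1 among 11863 genes with a mean of at least 5 CPM, by Pearson's r of log2 CPM, as a description that shares the libraries and the stand of replicate 2. The nearest to Sst were Gm43546, Amph and Rgag4, with r of 0.997, 0.997 and 0.995. The nearest to Calb1 were Coro1a, Gm14204 and Mcat, with r of 0.997, 0.996 and 0.990, and the nearest to Nxph1 were Pip5k1c, Zfp13 and Ptms, with r of 0.998, 0.995 and 0.991. Amph followed the order of Sst at 21.5, 13.3 and 26.7 CPM in Sp9 null and 23.9, 14.1 and 27.8 CPM in wild type replicates.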

How the data were processed

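RNA-seq of E12.5 MGE tissue gave 3 Sp9 null and 3 wild type libraries. The deposited table holds, per the file headers, a read count and an FPKM value per gene and library. TopHat, Cufflinks 2.1.1 and the build GRCm38.p4 come from the submitters' processing notes, while the sources used here do not give the counting program or strandedness. Deposited FPKM values equalled count over 1 fixed length per gene and library total, to a relative error under 0.001, in all 21180 genes counted in 2 or more libraries. The number of unused sample columns was 0. A floor of 3 counts corresponds to 0.273 to 0.439 CPM per library; intervals from counts cover counting error only.

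The main test was edgeR's quasi-likelihood test (edgeR 4.0.16, R 4.3.3, TMM scaling, default expression filter, robust dispersions, two-sided), with Benjamini-Hochberg adjustment over all 14929 tested genes and calls under 0.05. Each standard error is the estimate divided by the root of its F statistic, and 95% intervals use the test's degrees of freedom. TMM factors lay between 0.976 and 1.01. DESeq2 1.42.0 was an alternative. Chi-square over degrees of freedom was 3.28 to 21.9 between replicates of a group, more than counting error alone gives. Each library was treated as its own sample. This does not show that the libraries came from different embryos, and part of the spread may be technical. Each fit was tested on its own simulated counts for 14929 genes. All genes had the same biological coefficient of variation, 0.171 without and 0.0676 with the replicate block. Counts for the blocked fit were simulated with a level per replicate number, so the pairing was built in. The recovered shares therefore do not compare the fits with each other. Genes changed 2-fold were recovered in 71.0% of cases without and 92.3% with the replicate block. Of those changed 1.5-fold, 14.9% and 72.9% were recovered. Standard errors of the tested members ran from 0.21 to 1.03 without and from 0.14 to 0.34 with the block. Recovery at the spread of each member was not tested.

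Deviations from the group mean correlated by 0.34, 0.72 and 0.53 between libraries with number 1, 2 and 3, all over 0.1, so the numbers were taken to pair the libraries. This comes from the data, and the labels do not say what a number marks. Unlike numbers passed 0.1 too, Sp9 null 1 with wild type 3 by 0.24 and Sp9 null 3 with wild type 1 by 0.35. Deviations in a group balance out per gene, so a replicate 2 apart from the rest by itself makes numbers 1 and 3 correlate. Numbers 1 and 3 are thus not told apart, and pairing them is an assumption of the blocked fits.

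The members, gene lists and motifs were chosen with earlier results of these data known. All members are named; of each list of related genes (other peptides, peptide processing, receptors, other subtype markers, paralogues and partners), the genes called in either edgeR fit and up to 3 more of the highest mean CPM among those tested are named too. Marker lists of other cells were summed per library as a description with no test of the sums, and the genes named from them were chosen after their values were seen. Similar profiles used log2 CPM with 0.5 counts added. Promoters are from RefSeq.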

Additional observations from a re-analysis of the deposited data

How the results depend on the processing

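With genotype only 22 genes were called, and 22 with RLE size factors, 65 with no filter on low counts, 84 by DESeq2, 597 with the replicate block and 163 by DESeq2 with the block. Leaving out each library in turn gave 2 to 34 calls, with 2, 11 and 6 without wild type replicates 1, 2 and 3, and leaving out each pair with the block gave 1193, 126 and 219 for pairs 1, 2 and 3. Fits without a pair keep few libraries and lean on a spread shared across genes, so their adjusted p-values are a weak check. Without replicate 2 of both groups, chosen after seeing the data, 89 were called. Of the members, 0 were called with genotype only, by DESeq2, with no filter and with each library left out; 1 was called with the replicate block, by DESeq2 with the block, with each pair left out with the block and without replicate 2 of both groups. That member was Calb1, except that without pair 1 it was Npy. The log2 fold change of Calb1 stayed negative in all 15 alternatives, from -1.75 to -0.95, with adjusted p from 5.34e-06 to 0.9997. Those of Nxph1, Nos1 and Npy also kept their direction, from -0.73 to -0.16, 0.24 to 0.93 and 0.13 to 0.54.

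With 1 library left out, direction turned for Sst (-0.52 to 0.34, positive at 0.33 without Sp9 null replicate 2 and 0.34 without wild type replicate 3), Pnoc (-0.50 to 0.72, negative at -0.0025, -0.50 and -0.33 without Sp9 null replicates 1 and 3 and wild type replicate 2), Elfn1 (-0.28 to 0.50, negative at -0.28 and -0.27 without Sp9 null replicate 3 and wild type replicate 2) and Tac1 (-0.72 to 0.078, positive at 0.063 and 0.078 without Sp9 null replicate 2 and wild type replicate 3). With the replicate block, Pnoc was at -0.16 without pair 3 and Tac1 at 0.057 without pair 1. None of these 4 genes was called in any setting, and the cause was not tested. Depth limits Calb2 and Crhbp, with at most 8 counts in any library.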
